A study of Mus musculus with 12 samples.

Results

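PTC2 is a line of NIH/3T3 cells, an immortal line of mouse embryo fibroblasts, in which Cas9 editing left a premature termination codon in exon 5 of Actg1. The labels write its allele as Actg1-202:r.1096_1097insn[4036], an insertion of 4036 nt in the transcript. Chromatin accessibility in this line was compared with that in unedited wild-type (WT) cells by ATAC-seq, an assay that tags open DNA with adapters carried by the Tn5 transposase. The comparison took every region of the deposited table with a mean normalized read count of 5 or more over the 12 libraries of the study, which kept 81985 of 81995 regions. There were 3 PTC2 and 3 WT libraries. The other 6 libraries were of PTC1, whose early stop lies in exon 3 (c.280_281insT together with c.[280A>G; 280_281insT]), and of LD, in which the full Actg1 locus was deleted. They shared the estimate of the spread and are used below only to show where PTC2 differed from the other mutants. All groups were the same cell line. The design text calls the replicates biological, and no separate clones of an allele are named. Accessibility at Actg1 itself was not analysed here, so the alleles are known from the labels alone. Each allele was therefore taken as 1 line, the p-values measure only the spread between these samples, and an effect of the allele and a trait of the line cannot be told apart.

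Actg1 encodes cytoplasmic gamma-actin, which together with beta-actin builds the cortex and stress fibres of fibroblasts. The pool of actin monomers sets the activity of MRTF, a coactivator that drives contractile and matrix genes with SRF, while an mRNA with a premature stop codon is open to nonsense-mediated decay, and transcriptional adaptation is a rise in the output of related genes that can accompany such decay. Accessibility at a promoter or enhancer shows how far nucleosomes leave the DNA free and is not itself a measure of mRNA.

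The promoters below belong to 4 contractile and matrix genes that were higher in PTC2 and to 3 genes, of 2 proteases and a cytokine receptor, that were lower. They were picked as examples of motifs in changed promoters and do not stand for their gene groups. They are RefSeq sequences of GRCm38.p6 (the assembly behind mm10), from 250 bases before to 50 bases after the start site, written 5′ to 3′ on the strand of the gene. Capitals mark matches, on either strand, to the AP-1 motif TGANTCA, the TATA motif TATAAA, the TEAD motif GGAATG and the CArG box bound by SRF. Among the 7179 genes with a measured start site and a RefSeq promoter, these motifs were found in 5.04%, 6.39%, 11.6% and 1.28% of promoters. A match is a description of letters and not a measured binding site.

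Lmod1 (chr1:135324563-135324862, plus strand): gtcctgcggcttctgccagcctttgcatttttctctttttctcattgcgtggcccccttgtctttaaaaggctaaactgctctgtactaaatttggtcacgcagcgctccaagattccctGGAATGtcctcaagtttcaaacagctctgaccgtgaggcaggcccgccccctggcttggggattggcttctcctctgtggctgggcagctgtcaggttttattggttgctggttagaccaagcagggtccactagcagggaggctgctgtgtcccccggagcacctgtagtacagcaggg

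Myl9 (chr2:156775214-156775513, plus strand): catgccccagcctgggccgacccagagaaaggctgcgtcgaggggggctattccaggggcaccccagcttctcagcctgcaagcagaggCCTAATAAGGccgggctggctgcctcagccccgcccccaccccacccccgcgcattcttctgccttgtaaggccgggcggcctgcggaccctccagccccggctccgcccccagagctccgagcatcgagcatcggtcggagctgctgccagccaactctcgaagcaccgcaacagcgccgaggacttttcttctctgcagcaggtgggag

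Postn (chr3:54360857-54361156, plus strand): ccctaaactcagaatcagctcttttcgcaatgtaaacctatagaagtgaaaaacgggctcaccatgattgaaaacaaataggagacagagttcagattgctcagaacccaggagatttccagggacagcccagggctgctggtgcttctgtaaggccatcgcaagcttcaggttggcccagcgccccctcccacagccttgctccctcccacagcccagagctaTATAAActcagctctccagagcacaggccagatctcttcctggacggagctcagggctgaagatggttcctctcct

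Thbs2 (chr17:14694213-14694512, minus strand): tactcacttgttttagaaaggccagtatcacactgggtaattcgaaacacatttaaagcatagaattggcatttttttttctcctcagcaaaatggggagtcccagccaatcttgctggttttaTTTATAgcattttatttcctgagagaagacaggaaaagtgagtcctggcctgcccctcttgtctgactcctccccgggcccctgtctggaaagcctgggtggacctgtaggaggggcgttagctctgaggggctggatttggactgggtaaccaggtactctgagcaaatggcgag

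Mmp10 (chr9:7502092-7502391, plus strand): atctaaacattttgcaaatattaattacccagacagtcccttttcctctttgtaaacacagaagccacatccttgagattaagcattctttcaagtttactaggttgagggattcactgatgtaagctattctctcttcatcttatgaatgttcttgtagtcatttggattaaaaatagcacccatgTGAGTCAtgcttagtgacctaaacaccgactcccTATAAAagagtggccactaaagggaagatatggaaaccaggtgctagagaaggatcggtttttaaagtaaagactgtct

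Mmp13 (chr9:7272264-7272563, plus strand): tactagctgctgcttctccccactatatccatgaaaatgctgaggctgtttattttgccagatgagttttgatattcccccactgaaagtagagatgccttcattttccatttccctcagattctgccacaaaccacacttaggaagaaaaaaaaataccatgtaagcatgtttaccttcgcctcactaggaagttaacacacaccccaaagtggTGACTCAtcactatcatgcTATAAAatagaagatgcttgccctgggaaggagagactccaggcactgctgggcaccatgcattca

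Il13ra2 (chrX:147429143-147429442, minus strand): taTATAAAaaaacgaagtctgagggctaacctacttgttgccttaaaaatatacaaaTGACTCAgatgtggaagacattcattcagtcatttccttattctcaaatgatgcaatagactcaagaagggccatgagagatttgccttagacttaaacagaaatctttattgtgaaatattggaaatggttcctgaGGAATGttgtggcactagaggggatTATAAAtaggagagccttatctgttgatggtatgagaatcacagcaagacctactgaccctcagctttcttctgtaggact

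In the Myl9 promoter, a gene of the myosin regulatory light chain, the CArG box begins 161 bases before the start site. Its region had normalized read counts of 633, 651 and 722 in WT and 1194, 1170 and 1198 in PTC2, a log2 change of 0.83 (limma adjusted p = 1.52e-10). Lmod1 has a TEAD match 130 bases before its start site, and Postn a TATA match at 26 bases. In Mmp10 and Mmp13 the AP-1 match lies 63 and 35 bases before the start site, ahead of a TATA match at 29 and 16 bases. The Il13ra2 promoter holds an AP-1 match at 193 bases and a TATA match at 31 bases.

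The summed values of the WT libraries ran from 33.61 to 34.02 M (mega-counts, normalized), those of PTC2 from 33.57 to 34.8 M. Reads in regions, estimated from the steps in the values, were 30.34 to 32.91 M in WT and 35.81 to 44.98 M in PTC2, so PTC2 was the deeper group. Start-site regions (centre within 1000 bp of a listed start site) held 42.7% to 43.5% of a WT library and 44.9% to 46.2% of a PTC2 library, and these ranges do not overlap. They held 43.4% to 44.7% in PTC1 and 42.0% to 43.2% in LD. The part of depth and of this share in the results was not tested.

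Over all regions, 23274 were higher in PTC2 (28.4% of those tested) and 24451 were lower (29.8%), 58.2% in either direction by limma at an adjusted p under 0.05. A log2 change of 1 or more on the scale of the value plus 1 was called for 7541 higher (9.20%) and 10999 lower regions (13.4%). Among weak regions, with a mean under 46.83, calls of that size made up 34.6%, and among strong ones, above 446.2, they made up 4.44%. Size and direction differed between classes of position. Of 12449 start-site regions, 36.8% were higher and 17.0% lower, and 7.82% changed by a log2 of 1 or more. Of 56942 regions with no listed gene, 26.5% were higher and 32.9% lower, and 26.6% changed by that much. Regions listed over 1000 bp upstream or downstream of a start site lay between these classes, at 20.1% of 6077 and 18.7% of 6517. The classes also differed in level, with a median WT value of 980 at start sites and 88.7 at regions with no listed gene. The part of level in these shares was not tested.

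**Figure D1:**
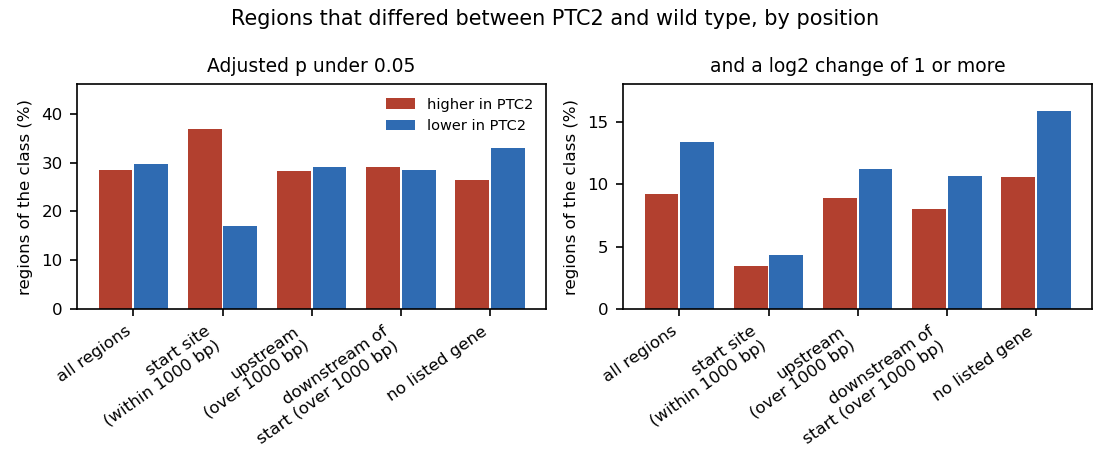
Bars give the share (%) of each class of region, by its position to the listed gene, that was higher or lower in PTC2 than in WT, at an adjusted p under 0.05 (left) and with a log2 change of 1 or more besides (right). At start sites 36.8% of regions were higher and 17.0% lower, while among regions with no listed gene 26.5% were higher and 32.9% lower.

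At their start sites, genes were more often higher than lower in PTC2. Of 10050 genes with a symbol, 3900 were higher (38.8%) and 1427 lower (14.2%), with a median log2 change of 0.105 against 0.02 over all regions. At a log2 change of 1 or more the directions were close, with 242 genes higher (2.41%) and 269 lower (2.68%). Of the gene calls, 73.2% were in the higher direction. This was 87.0% after scaling the libraries to the same median, 65.9% after loess normalization and 66.7% without PTC2 replicate 1. The balance of small changes thus depends on the scaling. The shares of all genes, 38.8% higher and 14.2% lower, are the background for each group of genes below.

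Contractile genes of smooth muscle were higher in PTC2 more often than lower. Of 25 measured members 15 were higher and 1 lower (3 lower after local centring), with a median log2 change of 0.30, and 8 were higher in PTC2 than in PTC1 and LD as well. Jph2, a junctophilin that ties the plasma membrane to the sarcoplasmic reticulum (chromosome 2, 163398044 to 163399058), read 120, 120 and 140 in WT and 516, 531 and 471 in PTC2. Its PTC2 values lay 3.98-fold above WT (log2 change 1.99, SE 0.103, adjusted p = 4.94e-16). Lmod1, which encodes leiomodin, a nucleator of actin filaments in smooth muscle (chromosome 1, 135324248 to 135325342), read 204, 214 and 180 in WT and 798, 679 and 735 in PTC2 (log2 change 1.88, SE 0.116, adjusted p = 2.9e-14). Every PTC2 library was above every WT library, while PTC1 had a mean of 155.0 and LD of 342.0. Mylk, the gene of myosin light chain kinase, was the member that fell, from 138, 161 and 166 to 76, 88 and 94 (log2 change -0.84, adjusted p = 1.38e-05).

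Among the actins, 3 genes had a start-site region. Actg2, smooth muscle gamma-actin (chromosome 6, 83535961 to 83536888), read 16, 36 and 29 in WT and 353, 331 and 339 in PTC2, a fold of 12.8 (log2 change 3.68, adjusted p = 1.85e-15). PTC2 and PTC1 did not pass the test of their difference there (-0.24, adjusted p = 0.299). LD had a mean of 43 at Actg2, and PTC2 exceeded it by 2.98. The rise was not confined to Actg2. It lies among 10 neighbouring regions (83512300 to 83673906) all called higher, some listed with Stambp and Cd207. Their median log2 change was 0.98 in PTC2 and 1.39 in PTC1. Acta2, smooth muscle alpha-actin, went from 1535, 1448 and 1629 to 1959, 1905 and 1859 (log2 change 0.31, adjusted p = 2.56e-05). A region upstream of it on chromosome 19 (34265495 to 34266122) rose from 358, 404 and 413 to 970, 1064 and 981 (log2 change 1.36, adjusted p = 5.55e-15), and a weak one on its other side (34240522 to 34240851) from 16, 18 and 13 to 102, 75 and 56 (2.21). Near other actins, regions fell. The region beside Actc1, the cardiac actin gene, went from 100, 117 and 98 to 47, 41 and 50 (-1.17), and one beside Actb (142912806 to 142913053) from 107, 107 and 146 to 50, 54 and 50 (-1.19). Of 3 regions around Acta1, the skeletal muscle actin gene, 2 fell, each by 0.44. Actb, beta-actin, read 3305, 3339 and 3350 in WT and 3123, 2916 and 2901 in PTC2 (-0.16, adjusted p = 0.00817), a direction that turned to 0.0036 when each chromosome was centred.

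Genes that build or cut filaments were split. Of 24 nucleator genes 8 were higher and 3 lower (median log2 change 0.09), with 5 higher without WT replicate 3 or PTC2 replicate 1 and 14 under scaling to the same median. Of 29 genes for monomer binding, severing and capping 9 were higher and 6 lower (0.01). Daam2, a formin gene of WNT signalling, rose from 138, 109 and 135 to 317, 292 and 271 (1.2). Fmn1, the formin gene of limb development, fell from 115, 152 and 112 to 27, 39 and 25 (-2.04, adjusted p = 1.89e-11), and Cap2, a monomer-binding gene of striated muscle, from 47, 51 and 58 to 12, 17 and 15 (-1.77). Both falls also set PTC2 below PTC1 and LD. Among MRTF-SRF regulators and early targets, 9 of 15 were higher (5 after local centring) and 3 lower, with Fhl1 at 0.57. The focal adhesion gene Tes fell from 833, 934 and 903 to 385, 311 and 269 (-1.48, adjusted p = 1.39e-12).

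YAP-TEAD regulators and targets had 12 of 27 genes higher and 0 lower (median 0.13). Loess normalization, both centrings and leaving out PTC2 replicate 1 gave 1 to 3 lower genes in this list. Amotl2, an angiomotin gene that restrains YAP, rose from 125, 147 and 158 to 262, 269 and 292 (0.94, adjusted p = 3.84e-06). Unconventional myosin and kinesin genes, motors of the cytoskeleton, were higher in 16 (9 after local centring) and lower in 4 of 37. Lower genes numbered 1 without PTC2 replicate 2 or 3 and 2 without WT replicate 1 or 3.

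**Figure D2:**
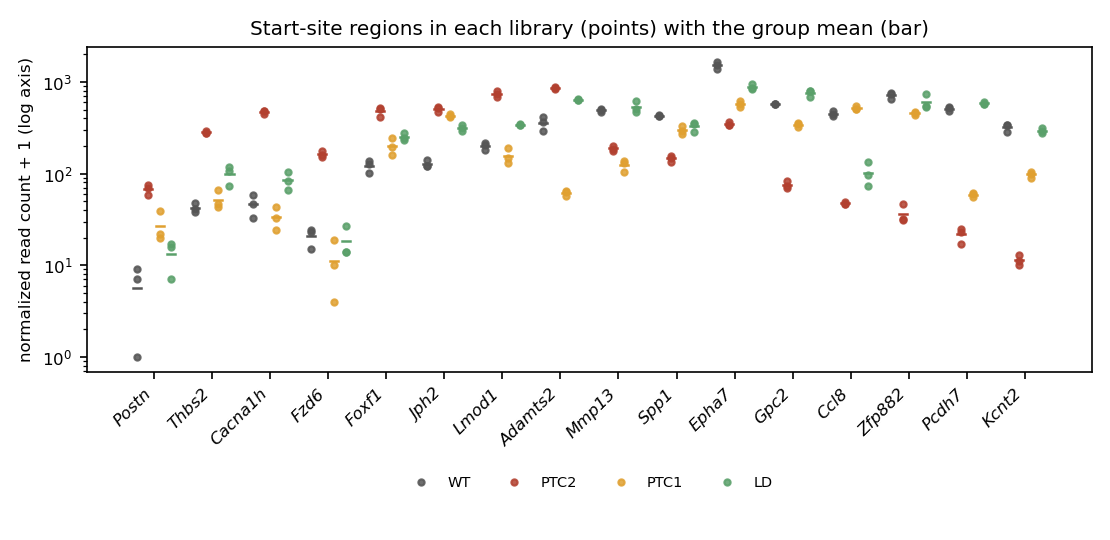
Points are the normalized read count plus 1 (log axis) of the start-site region of 16 genes in each of the 12 libraries, coloured by group, and bars are group means. From Postn to Adamts2 all 3 PTC2 libraries lie above all 3 WT libraries, and from Mmp13 to Kcnt2 all lie below.

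Collagen and matricellular genes, like the contractile genes and all genes, were more often higher than lower. Matricellular and elastic fibre genes were higher in 18 of 31 cases and lower in 6, with a median log2 change of 0.27, and fibrillar and network collagens in 11 and 2 of 21 (0.21). The matricellular shares were 58.1% higher and 19.4% lower, against 38.8% and 14.2% of all genes. Scaling to the same median left 2 lower matricellular genes. Postn, which encodes periostin (chromosome 3, 54360907 to 54361232), was nearly closed in WT at 6, 0 and 8 and read 68, 75 and 57 in PTC2 (log2 change 4.08, SE 0.526, adjusted p = 1.1e-07). Such a large change from values near 0 depends on the pseudocount. In the Thbs2 promoter shown above the TATA match is on the other strand, 126 bases before the start site. Thbs2, which encodes thrombospondin-2 (chromosome 17, 14694006 to 14694640), read 47, 37 and 40 in WT and 289, 277 and 278 in PTC2, a fold of 6.70 (2.74, SE 0.193, adjusted p = 4.98e-13). PTC1 at 42 to 66 and LD at 73 to 116 both lay below PTC2 at Thbs2. Col4a3, a basement membrane collagen gene, rose from 72, 65 and 73 to 157, 184 and 158 (1.23), and Col7a1, the anchoring fibril collagen gene, fell from 537, 470 and 574 to 176, 245 and 228 (-1.29).

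Spp1, which encodes the secreted phosphoprotein osteopontin, was the matricellular gene with the largest fall. Its region (chromosome 5, 104434554 to 104435516) read 420, 426 and 437 in WT and 156, 148 and 133 in PTC2 (-1.55, SE 0.111, adjusted p = 7.57e-13). Matrix proteases and inhibitors were split, with 12 of 30 higher and 8 lower. Without PTC2 replicate 1 the counts were 10 and 11. The procollagen peptidase gene Adamts2 rose from 289, 368 and 413 to 870, 868 and 837 (1.28, adjusted p = 2.63e-11). The collagenase gene Mmp13 fell from 470, 512 and 490 to 185, 199 and 177 (-1.39, adjusted p = 3.42e-11), and its neighbour on chromosome 9, the stromelysin gene Mmp10, from 198, 189 and 180 to 47, 53 and 68 (-1.75, adjusted p = 2.51e-07). For both proteases PTC2 and WT did not overlap. PTC1 read 102 to 135 at Mmp13 and 18 to 50 at Mmp10, and LD overlapped WT at 466 to 624 and 173 to 202.

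Integrin genes were higher in 6 and lower in 4 of 14, and equal in number without WT replicate 1 or PTC2 replicate 1. Itga2, the alpha subunit of a collagen receptor, fell from 384, 405 and 368 to 162, 180 and 163 (-1.19, adjusted p = 1.26e-10).

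Signalling genes changed at ligands, receptors and antagonists alike. In the WNT pathway 19 of 39 genes were higher and 7 lower (median 0.17). Fzd6, a WNT receptor gene (chromosome 15, 39005888 to 39006564), rose from 14, 23 and 22 to 175, 158 and 152, a fold of 8.03 (3.00, SE 0.385, adjusted p = 9.96e-08), and exceeded PTC1 and LD there by 4.15 and 3.22. Fzd3, a second frizzled gene, rose from 131, 162 and 124 to 334, 305 and 328 (1.22). Lef1, a nuclear partner of beta-catenin, fell from 91, 125 and 121 to 35, 33 and 45 (-1.55, adjusted p = 2.31e-10).

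TGF-beta and BMP pathway genes gave 14 of 38 higher and 7 lower (0.12), close to the background. Grem1, a BMP antagonist gene, fell from 514, 577 and 573 to 235, 202 and 219 (-1.34, adjusted p = 4.7e-13). Gdf6, a BMP ligand gene of joints, fell from 95, 88 and 77 to 26, 27 and 16 (-1.90).

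Hedgehog pathway genes were higher in 7 (4 after local centring) and lower in 1 of 13. Ptch1, the receptor and target gene of the pathway, rose from 78, 85 and 142 to 303, 249 and 277 (1.48, adjusted p = 4.29e-08). Hhip, which encodes a hedgehog-binding inhibitor, fell from 208, 138 and 168 to 24, 37 and 40 (-2.33, adjusted p = 5.09e-10). Among receptor tyrosine kinases and growth factors of fibroblasts 10 of 25 were higher and 5 lower, with Pdgfra at 0.99 and the EGF family ligand gene Areg at -1.98, from 30, 26 and 22 to 4, 6 and 8.

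Cytokine, chemokine and receptor genes leaned the other way, with 10 of 31 higher and 12 lower, but scaling to the same median gave 14 and 10. Ccl8, a chemokine gene (chromosome 11, 82115481 to 82116552), fell from 441, 420 and 481 to 48, 46 and 46, 9.39-fold lower (-3.23, SE 0.151, adjusted p = 5.56e-17), with PTC1 and LD both above PTC2. Il13ra2, the decoy receptor of interleukin-13, fell from 504, 457 and 465 to 211, 181 and 201 (-1.26, adjusted p = 1.94e-11). Ccl7, in the same chemokine cluster as Ccl8, rose from 274, 255 and 324 to 430, 458 and 480 (0.69), so neighbours in that cluster moved in opposite directions.

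**Figure D3:**
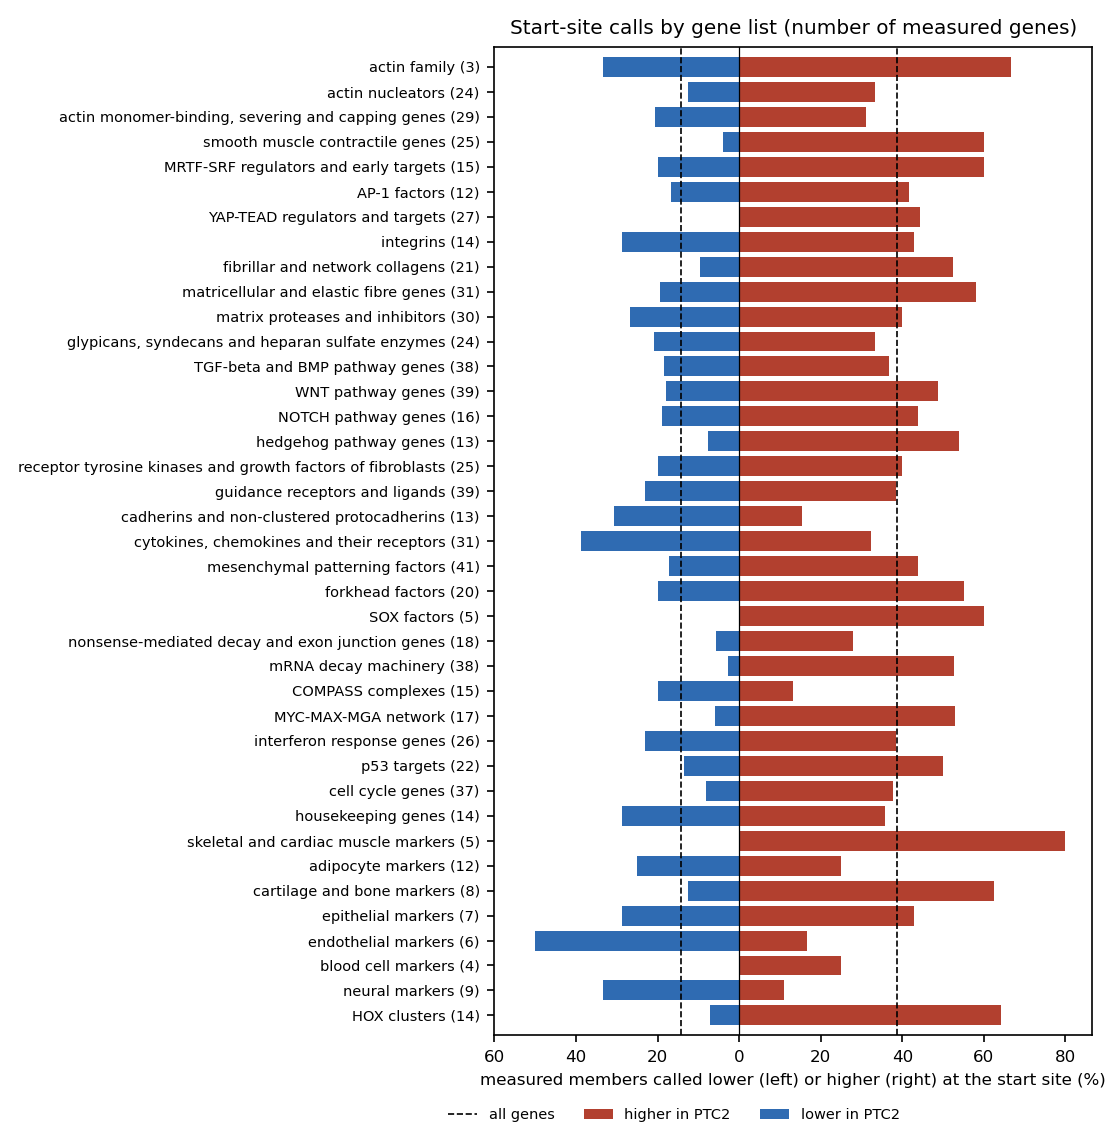
Bars give the share (%) of measured genes in each of 39 gene lists whose start-site region was lower (left) or higher (right) in PTC2, with the number measured in brackets and the shares over all genes (14.2% and 38.8%) as dashed lines. Smooth muscle contractile genes reached 60% higher and 4% lower, and cytokine genes 32.3% and 38.7%.

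Among surface genes, cadherin and non-clustered protocadherin genes were higher in 2 and lower in 4 of 13 (median -0.01). That balance turned under scaling to the same median (5 and 4), under both centrings and without WT replicate 1. Pcdh7, a protocadherin gene (chromosome 5, 57717104 to 57718579), fell from 483, 533 and 514 to 24, 16 and 22, 23.9-fold lower (-4.58, SE 0.145, adjusted p = 8.43e-21). PTC1 also read low there, at a mean of 58.0, and LD stayed at 585.0. Glypican, syndecan and heparan sulfate genes were close to the background with 8 of 24 higher and 5 lower, but held changes at both ends. Hs3st3b1, a heparan sulfate sulfotransferase gene, rose from 21, 26 and 15 to 792, 729 and 661 (5.10). Gpc2, a glypican gene of the nervous system (chromosome 5, 138279704 to 138280533), read 575, 580 and 579 in WT and 68, 73 and 82 in PTC2 (-2.95, SE 0.0993, adjusted p = 3.71e-20). Gpc6 read 1390, 1409 and 1376 in WT at its start-site region and 23, 58 and 28 in PTC2 (-5.34).

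Guidance receptors and ligands gave 15 of 39 higher and 9 lower, with 4 lower if PTC2 replicate 3 was left out and 3 if medians were equalized. Epha7, an ephrin receptor gene (chromosome 4, 28812695 to 28814181), read 1537, 1660 and 1374 in WT and 340, 334 and 361 in PTC2 (-2.14, SE 0.0814, adjusted p = 5.91e-19), a direction that turned to 0.51 when the running median of the surrounding regions was taken off. The region thus fell less than its neighbours did. Plxnb1, a semaphorin receptor gene, fell from 185, 178 and 169 to 80, 87 and 76 (-1.12), and the ephrin gene Efna2 rose from 51, 40 and 46 to 92, 102 and 139 (1.25).

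Ion channel genes included large changes of both signs. Cacna1h, a low-voltage calcium channel gene (chromosome 17, 25433441 to 25434308), rose from 46, 32 and 58 to 445, 484 and 477, 10.4-fold (3.38, SE 0.215, adjusted p = 5.45e-14), and Cacna2d3, a calcium channel subunit gene, fell from 1297, 1243 and 1224 to 323, 346 and 282 (-1.99, SE 0.0946, adjusted p = 8.55e-17). Calcium and sodium channel genes were higher in 7 and lower in 2 of 13. Kcnt2, a sodium-activated potassium channel gene, fell from 339, 337 and 283 to 12, 9 and 10, 28.4-fold lower (-4.83, adjusted p = 2.61e-20). Kcnq5 rose from 176, 175 and 169 to 505, 458 and 484 (1.47, adjusted p = 5.62e-08), in a potassium channel family with 6 of 23 higher and 7 lower whose balance turned under several settings and which had 2 higher without WT replicate 1 and 3 without PTC2 replicate 3.

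Transcription factor genes of mesenchymal patterning were higher in 18 and lower in 7 of 41 (median 0.18). Meox1, a homeobox gene of somites, rose from 14, 13 and 30 to 102, 119 and 118 (2.61, adjusted p = 3.08e-09), and Eya4, a coactivator gene, from 187, 127 and 163 to 660, 576 and 533 (1.90, adjusted p = 1.39e-12). Tbx4, a hindlimb factor gene, fell from 92, 71 and 85 to 13, 15 and 7 (-2.78, adjusted p = 3e-09), and Dlx6, a craniofacial and limb homeobox gene, from 104, 133 and 124 to 14, 14 and 26 (-2.73, adjusted p = 1.98e-12). Forkhead genes were higher in 11 and lower in 4 of 20 (0.23). Foxf1, a forkhead gene of visceral mesenchyme and its smooth muscle (chromosome 8, 121083519 to 121084479), rose from 101, 127 and 136 to 519, 417 and 505, a fold of 3.95 (1.98, SE 0.14, adjusted p = 5.74e-13). It was also above PTC1 by 1.28 and above LD by 0.94.

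HOX genes were higher in 9 and lower in 1 of 14 (0.20), a count that dropped to 5 higher after local centring. Hoxc11 rose from 17, 37 and 36 to 132, 148 and 131 (2.23, adjusted p = 3.44e-09), and a region 4577 bp from the start site of its neighbour Hoxc12 from 21, 18 and 20 to 179, 200 and 163 (3.13). In the MYC-MAX-MGA network 9 of 17 genes were higher and 1 lower, and 3 and 3 after local centring. The lower gene was Mga, a MAX-binding repressor gene, at 519, 457 and 457 in WT and 12, 10 and 0 in PTC2 (-6.51). E2f6, which encodes a partner of MGA in a polycomb complex, rose from 238, 236 and 255 to 676, 720 and 676 (1.5, SE 0.129, adjusted p = 3.74e-11). AP-1 factor genes were higher in 5 and lower in 2 of 12, but 1 and 3 after local centring.

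Genes of mRNA decay moved by small amounts, with more called higher than lower, as over all genes. Of 38 genes of the decay machinery 20 were higher (52.6%, against 38.8% of all genes) and 1 lower. Their median log2 change was 0.16, with no change past 0.56. After local centring 12 were higher and 5 lower, a split near that of all 10050 genes, of which 3034 were then higher and 1273 lower. Edc4, a scaffold of decapping, rose from 316, 358 and 349 to 549, 477 and 485 (0.56, adjusted p = 3.92e-06), and the decapping gene Dcp1b fell from 1014, 1129 and 1021 to 874, 785 and 796 (-0.37). Of 18 genes of nonsense-mediated decay and the exon junction 5 were higher and 1 lower (0.08), under the background in both directions. The place of the rises against the background depends on the scaling. With library medians equalized, 11 of the 18 were called higher, against 5337 of the 10050 genes. Local centring left 3 higher genes in this list, and loess normalization gave 3 lower ones. Magohb, an exon junction core gene, rose from 432, 514 and 480 to 752, 643 and 610 (0.49). Upf3b, on the X chromosome, fell from 1557, 1458 and 1463 to 1123, 1113 and 1240 (-0.37), a call lost after either centring. COMPASS genes, which serve methylation of histone H3 at lysine 4, were higher in 2 and lower in 3 of 15, a balance that turned under scaling to the same median and chromosome centring.

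Several families of constantly active genes showed the background's lean at small size. Ribosomal protein genes were higher in 20 and lower in 4 of 64, subunits of mitochondrial complexes in 24 and 3 of 70, cell cycle genes in 14 and 3 of 37, and proteasome and chaperonin genes in 19 and 0 of 38. A list of housekeeping genes did not, with 5 of 14 higher and 4 lower (median 0.04). Its balance turned under loess normalization (4 and 6) and without WT replicate 2 or PTC2 replicate 1 (4 and 5). Ribosomal protein calls moved from 9 higher under either centring to 34 under scaling to the same median, with 13 without WT replicate 2 and 12 without PTC2 replicate 1. Lower cell cycle genes numbered 6 without PTC2 replicate 1. Higher proteasome and chaperonin genes numbered 10 under chromosome centring and 9 under local centring. Lower ones numbered 2 under loess normalization and 1 under local centring, without WT replicate 3 or without PTC2 replicate 1. Among the exceptions in size, Psmb8 and Tap1, neighbouring antigen-processing genes on chromosome 17, rose by 1.15 and 1.07, Tap1 from 559, 449 and 626 to 1219, 1125 and 1066. Interferon response genes gave 10 of 26 higher and 6 lower, with the GTPase genes Mx2 at -1.38 and Gbp2 at -1.14. H1f10, a linker histone gene, fell from 1203, 1361 and 1168 to 545, 477 and 601 (-1.2, adjusted p = 2.29e-13). Of p53 targets 11 of 22 were higher and 3 lower, but 5 and 6 after local centring.

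Many Trav segment genes of the T-cell receptor, neighbours in a run on chromosome 14 given below, fell far below WT. Of 15 measured T-cell receptor and immunoglobulin segment genes 10 were lower and 1 higher, with a median log2 change of -3.85, and 9 of the 10 also lay below PTC1 and LD. The segment gene Trbv31, on chromosome 6, was higher at all 4 of its regions (0.31 to 0.56). Trav12-2 fell from 634, 508 and 540 to 7, 11 and 12 (-5.70). Olfactory and vomeronasal receptor genes were lower in 9 and higher in 1 of 13 (-0.62), led by Vmn1r43 from 84, 86 and 73 to 27, 27 and 22 (-1.64). Among 193 ZFP genes, which encode zinc finger proteins, 68 were higher and 25 lower. Zfp882 fell from 735, 752 and 650 to 30, 31 and 46, 19.8-fold lower (-4.31, SE 0.135, adjusted p = 7.22e-21), and Zfp638, a gene for a nuclear RNA-binding factor, rose from 746, 742 and 679 to 2187, 1846 and 1844 (1.43, SE 0.0661, adjusted p = 4.23e-17). TRIM genes were split at 5 higher (3 without PTC2 replicate 1 or 2) and 6 lower of 28, with Trim30a falling from 59, 67 and 60 to 2, 3 and 6 (-3.84). Solute carrier genes gave 69 of 168 higher and 32 lower. Slc1a6, a glutamate transporter gene, rose from 194, 157 and 153 to 642, 611 and 592 (1.87), and Slc4a11, a borate transporter-like gene of the cornea, fell from 89, 81 and 76 to 8, 13 and 18 (-2.63).

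Markers that would label other cell types were mostly unmeasured at their start sites. Of 25 neural markers 9 were measured, summing to 3268 to 3432 in WT and 3153 to 3449 in PTC2. Of 21 blood cell markers 4 were measured, with sums of 276 to 391 and 310 to 400. Endothelial markers (6 of 18) summed to 1744 to 1825 and 1968 to 2240, and epithelial ones (7 of 22) to 2736 to 3090 and 3118 to 3177, so both sums lay above WT in PTC2, although of the 6 endothelial genes 1 was higher and 3 were lower (median -0.33). Cartilage and bone markers (8 of 21) summed to 3978 to 4120 and 4589 to 4925, with 5 higher and 1 lower. Adipocyte markers (12 of 21) summed to 12642 to 13198 and 11848 to 12977, with 3 higher and 3 lower. Skeletal and cardiac muscle markers (5 of 26) summed to 370 to 472 in WT and 604 to 647 in PTC2, and 4 of the 5 were higher, with Des, which smooth muscle also expresses, at 1.28. No region within 1000 bp of a start site was listed for the myogenic factor genes Myod1 and Myog, the endothelial genes Pecam1 and Cdh5 or the blood gene Ptprc. For comparison, the 21 measured fibroblast collagen genes summed to 14783 to 15366 in WT and 16144 to 17601 in PTC2. The part of such cells in the results was not tested.

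Genes that rank 11 to 20 by size of change among all listed regions included several outside the lists. Nipsnap1, a mitochondrial matrix protein gene, rose from 21, 27 and 17 to 182, 173 and 200 (3.06, adjusted p = 2.76e-12). Lmbr1, the gene whose intron holds the limb enhancer of Shh, fell from 685, 712 and 611 to 43, 43 and 42 (-3.94, SE 0.229, adjusted p = 7.72e-15), and the guanine deaminase gene Gda from 427, 448 and 460 to 24, 27 and 16 (-4.29). At Lmbr1 LD was as low as PTC2 or lower, by 0.60, and PTC1 was not. Fgf14, a neuronal channel-binding factor gene, fell from 238, 240 and 230 to 16, 23 and 17 (-3.61), a call lost after local centring. Aff2, on the X chromosome, fell from 126, 187 and 182 to 7, 11 and 10 (-4.0).

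Genes with several listed regions allow a check along the gene. Of 123 genes with 4 or more regions, 7 had every region higher and 4 every region lower, each region called on its own. Junb, an AP-1 gene, had 4 regions at 0.27 to 0.62 that summed to 6998 in WT and 9031 in PTC2, although its start-site region was at 0.03 after local centring. Col6a3, a collagen VI gene, had 4 at 0.35 to 0.53, and Loxl1, an elastin cross-linking enzyme gene, 4 at 0.22 to 0.66. Unc5b, a netrin receptor gene, ranged from 0.25 to 1.77 and the syndecan gene Sdc3 from 0.29 to 1.35. The other syndecan gene in this set, Sdc4, was lower at all 4 regions (-0.77 to -0.33). The ceruloplasmin gene Cp lost most, with a median of -1.39 and sums of 509.7 in WT and 227.0 in PTC2.

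Among regions with no listed gene, single changes were also large. On chromosome 15 (84469361 to 84469957), inside Shisal1 and 88164 bp from the nearest coding start, values rose from 16, 27 and 14 to 671, 838 and 752 (5.29, SE 0.209, adjusted p = 1.41e-18). On chromosome 9 (58153066 to 58153724), inside the retinol carrier receptor gene Stra6 and 5159 bp from the start of the stromal gene Islr, they rose from 13, 21 and 9 to 367, 395 and 369 (4.70), and there the difference from PTC1 was 0.42 and did not pass the test (adjusted p = 0.0959). Inside Limch1, a gene of an actomyosin regulator (chromosome 5, 66898807 to 66899605), they rose from 9, 7 and 12 to 291, 214 and 316 (4.74). On the falling side a region of chromosome 4 (70903937 to 70904738), 369409 bp from the nearest coding start, went from 458, 446 and 497 to 2, 7 and 0 (-7.34). On chromosome 5 (57755768 to 57756195), inside Pcdh7 and 37900 bp from its start, values went from 253, 265 and 255 to 3, 2 and 2 (-6.29), beside the fall at the Pcdh7 promoter.

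Some changed regions lay in runs along the chromosomes. Runs of 8 or more neighbouring regions, each called in 1 direction with a log2 change of 0.5 or more, numbered 84 higher and 154 lower. These runs held 890 of the 23274 higher and 1726 of the 24451 lower regions, so most called regions lay outside them. They were chosen from the values, so they are described and not tested. The lower runs were longer, with a median of 346.0 kb against 111.0 kb. The fullest rising run, 27 regions on chromosome 17 (7234633 to 7832767) over the matrix gene Fndc1 and the kinase gene Rps6ka2, summed to 745, 628 and 665 in WT and 5672, 5262 and 5789 in PTC2, with a median log2 change of 3.43. PTC1 and LD summed to 726.0 and 773.0 there. A run of 15 regions on chromosome 1 (72736081 to 72870519) held Igfbp2 and Igfbp5, genes of proteins that bind insulin-like growth factors, with sums of 428, 474 and 394 against 3104, 3067 and 3122 (median 2.77). The 17 regions around Foxf1 (120832118 to 121093246) summed to 1908, 1982 and 1998 in WT and 6746, 6564 and 6983 in PTC2 (median 2.04), so the promoter moved with its surroundings.

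The fullest falling run covered 38 regions and 543.3 kb of chromosome 11 (67379723 to 67923028) with Gas7, a growth arrest gene. It summed to 14593, 14237 and 14431 in WT and 4217, 4413 and 4298 in PTC2, at a median of -1.99. A run of 30 regions on chromosome 2 (132993309 to 134130390) around Bmp2, a BMP ligand gene, fell from 9294, 8775 and 8806 to 2479, 2409 and 2399 (median -2.27). On chromosome 10 (108979717 to 110210205), 23 regions over the synaptic gene Syt1 and Nav3 fell from 2564, 2472 and 2464 to 411, 404 and 367 (median -2.28) while PTC1 summed to 4720. Trav12-2 and other Trav segment genes lie in a run of 21 regions on chromosome 14 (53505334 to 53804690, median -3.85). In that run PTC1 and LD summed to 4795 and 6368 against 5315 in WT and 330.3 in PTC2. Epha7 lies in a run of 11 regions on chromosome 4 (28700621 to 29504666, median -4.39) flanked by runs of 9 regions on each side, from 26629936 and up to 31874032, at -5.21 and -4.22.

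**Figure D4:**
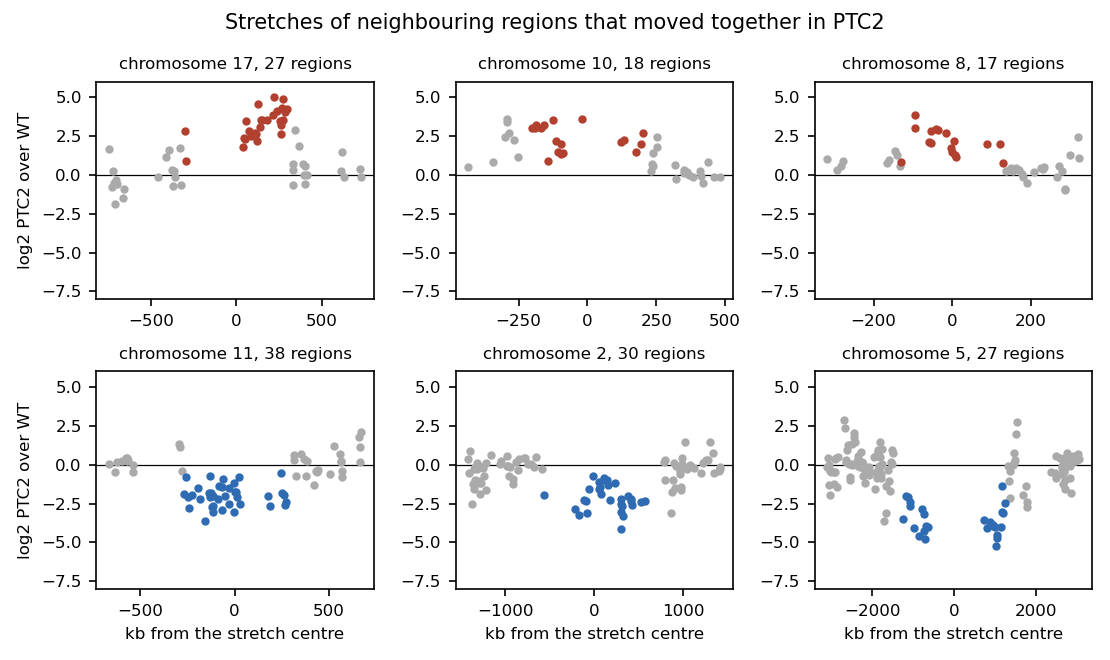
Each panel plots the log2 change of PTC2 over WT for single regions against the distance (kb) from the centre of a run of neighbouring called regions (coloured) and its flanks (grey), with the 3 fullest rising runs above and the 3 fullest falling runs below. The runs have 27, 18 and 17 regions above and 38, 30 and 27 below.

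On a larger scale, 17 blocks of 100 or more regions had a running median (51 regions) at least 0.25 above WT and 21 had one as far below. They held 3323 and 3151 regions, were again chosen from the values, and are described only. Of the rising blocks 6 lay on chromosome 8, the fullest from 119159461 to 122907093 with 325 regions, 71.1% of them higher. In rising blocks, start-site regions and regions with no gene rose alike, with median log2 changes of 0.37 and 0.43 over the blocks. In falling blocks the medians of start-site regions ran from -1.37 to 0.22 (median -0.19) and those of regions with no gene from -1.22 to -0.39 (median -0.62), the latter below the former in 19 of 21 blocks. In a block of chromosome 4 (6365189 to 9974886) start sites were the lower class, at -1.37 against -0.95. A block of chromosome 4 (64175991 to 80866313, 190 regions) had medians of -0.05 at start sites and -0.63 elsewhere. A block of chromosome 2 (104864343 to 109407200) had -0.02 and -0.95.

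Medians of whole chromosomes differed from WT by small amounts that the 3 PTC2 libraries shared. The median of all regions was above WT in all 3 PTC2 libraries for 12 chromosomes and below for 8. In each case the PTC2 and WT libraries did not overlap. The exact two-sided permutation test gives p = 0.1 there, the smallest that 3 against 3 samples allow. Each library was set against the WT mean, so WT libraries lie near 0 by construction and this test cannot decide. Scaling to the same median moved the median of all regions from 0.02 to 0.115. Falls on chromosomes 3, 4, 14 and 19 were only -0.02 to -0.05, and the split was not read under that scaling. Chromosome 8 had the highest median log2 change, 0.25, with 44.9% of its 4525 regions higher. Chromosome 18 (-0.28), X (-0.27) and chromosome 2 (-0.18) had the lowest, with 48.5%, 46.6% and 41.8% of regions lower. Against WT, the chromosome 18 median was -0.45 in PTC1 and -0.55 in LD, and that of X -0.11 and -0.52. DNA copy number was not measured, and its part in these levels was not tested.

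**Figure D5:**
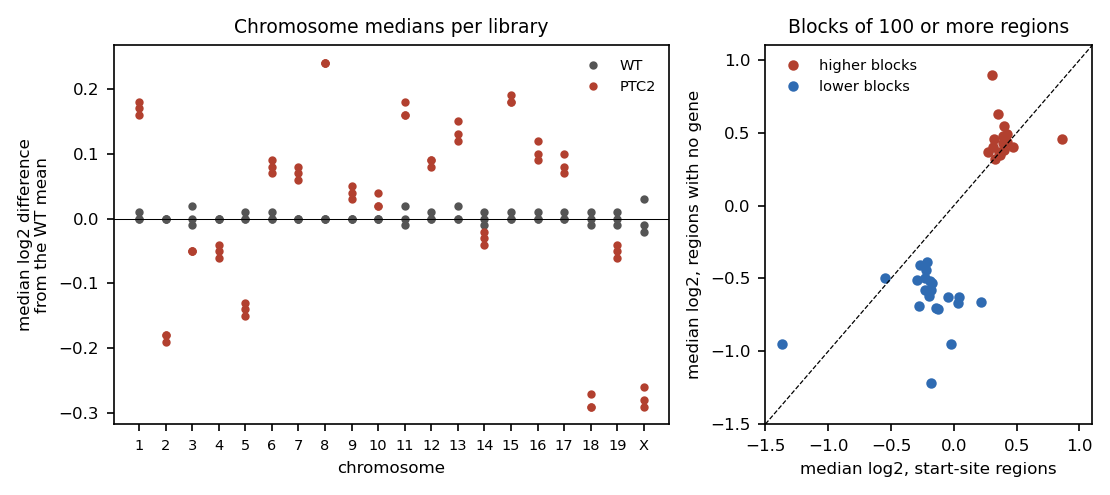
Left, points give the median log2 difference from the WT mean over all regions of a chromosome in each WT and PTC2 library, with PTC2 between -0.29 and 0.24. Right, each point is 1 of 38 blocks of 100 or more regions, by the median log2 change of its start-site regions and of its regions with no gene, and most lower blocks lie below the dashed line of equality.

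Some regions were close to empty in PTC2. In 81 regions with a WT mean of 50 or more every PTC2 library read 5 or less, and 11 of them were listed with a gene. The reverse, WT at 5 or less and PTC2 at 50 or more, held for 13 regions. The empty regions included one each listed with Pcdh9 and Gpc6. Of the 81, 8, 5, 3, 3 and 3 lay in groups at 5 places. Some of the others also lay near each other. Examples start at 28990273, 29089663 and 29094152 on chromosome 4 and at 73060708, 73216106 and 73341873 on chromosome 10. At one of the 5 places, on the X chromosome (92488999 to 93007009), 5 of 7 regions were near 0. These 7 together summed to 428.3 in WT, 11.33 in PTC2, 372.3 in PTC1 and 21.33 in LD. On chromosome 4 (92490327 to 92574950) all 3 regions summed to 619.0, 6.333, 561.0 and 282.0. Whether the DNA itself was missing at these places was not tested.

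Many changes set PTC2 apart from the other mutants too. In the direct comparisons 62.5% of regions differed between PTC2 and PTC1 and 59.5% between PTC2 and LD. Regions higher in PTC2 than in WT, PTC1 and LD, each by its own test, numbered 8413 (10.3%), and lower ones 10000 (12.2%). Among genes at the start site these were 1313 (13.1%) and 385 (3.83%). Of the gene groups above, 9 of 31 matricellular genes, 7 of 27 YAP-TEAD genes, 7 of 21 collagens and 9 of 15 receptor segment genes (lower) met this rule. These are groups above the share of all genes, and many of the segment genes are neighbours in 1 run. Other groups lay below that share for higher genes. Examples are 1 of 22 p53 targets, 1 of 64 ribosomal protein genes, 1 of 18 nonsense-mediated decay genes and 0 of 15 COMPASS genes. Under scaling to the same median the count of higher regions was 12668.

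Promoter sequence differed between genes that changed strongly and the rest. Of 10050 genes read at the start site, 7179 had a RefSeq promoter. The 1795 with the fewest CpG dinucleotides (15 or fewer in 300 bases) included 8.02% with a called log2 change of at least 1, against 2.45% to 2.73% in richer sets of the same size. Read levels of these sets were not compared, although over all regions such changes made up 34.6% of weak and 4.44% of strong ones. The AP-1 motif TGANTCA was present in 16.9% of the 148 promoters that fell by that much, 8.96% of the 134 that rose and 5.04% of all. Within the CpG-poor set it was present in 22 of 72 falling promoters (30.6%), 10 of 72 rising ones (13.9%) and 197 of all 1795 (11.0%), and in the other sets in 3 of 76, 2 of 62 and 3.06% of all 5384. The TEAD motif was found in 20.1% of rising and 15.5% of falling promoters against 11.6% of all. In the CpG-poor set its share was 20.8% among both rising and falling promoters and 16.8% among all, and in the other sets 19.4%, 10.5% and 9.86%. The TATA motif was in 8.21%, 12.2% and 6.39%, and the CArG box in 2.99%, 0.676% and 1.28%. The GC box GGGCGG was less frequent in both groups, at 56.0% and 57.4% against 69.4%. These shares are descriptions of letters in a fixed window, and say nothing about the factors that read them.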

How the data were processed

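ATAC-seq was done on 12 NIH/3T3 libraries of 4 genotypes, 3 each. The deposited table gives 1 normalized read count per region and library, which is treated here as a score, since the authors scaled the read counts by 1 factor per sample and rounded them. Per the submitters' processing notes the build was mm10 and the tools were STAR 2.7.10a, Trimmomatic 0.39, DESeq2 1.30.1 and Picard 2.25.5, without their roles. How peaks were called and whether Tn5 cut sites were shifted is not given in the sources used here. The fraction of a region inside the gene body, as deposited by the authors, was not used. Because the values are not raw counts, no count model was used.

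Values were taken as log2(value + 1). Regions with a mean of 5 or more over 12 libraries were tested with limma 3.58.1 in R 4.3.3 (empirical Bayes with a trend, 1 mean per group, all 12 libraries sharing the spread, Benjamini-Hochberg over 81985 regions, adjusted p under 0.05). Every adjusted p is from that test. The call was tested on simulated data in which few regions changed, each independently of its neighbours. These data differ in both respects, so that simulation does not show how reliable the calls are here. A gene was read at its listed region nearest the start site within 1000 bp. Named genes were the 2 largest rises and falls of each of 39 lists and 16 families (called, groups apart, higher mean of at least 20), ranks 11 to 20, genes with 4 or more regions all called in 1 direction, and the largest changes with no listed gene (higher mean of at least 100). Myl9, the runs, the blocks and the near-empty regions were chosen after their values were seen. Members and lists were chosen with earlier results of these data known. Alternatives were other pseudocounts, filters, scalings and centrings, the 2 groups alone, a replicate block and leaving out each library. Promoters came from RefSeq (GRCm38.p6). Some named genes are not reported here.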

Additional observations from a re-analysis of the deposited data

How the results depend on the processing

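Leaving out each library in turn gave 20924 to 21401 higher and 22731 to 23090 lower regions, 7283 to 7731 and 10657 to 11283 at a log2 change of 1 or more, 7205 to 8048 regions higher and 9121 to 9673 lower than WT, PTC1 and LD, 3194 to 3739 higher and 1141 to 1595 lower genes, and 26.3% to 26.9% of regions with no gene changed by 1 or more. Scaling to the same median moved the median of all regions from 0.02 to 0.115 and gave 12668 regions higher than all 3 other groups and 797 lower genes. Same-numbered libraries of WT and PTC2 correlated at 0.0268, 0.00656 and 0.0316 in their deviations, too little to pair them, and with a replicate block 23538 regions were higher and 24644 lower, with 3987 and 1470 genes. Of 231 named regions, 3 of them not called to begin with, 61 lost their call or changed sign in at least 1 alternative, 22 of these changed sign, and 170 did neither. The filter at a mean of 20 left 225 to compare. Under chromosome centring these were Actb 0.0036, Diaph1 0.12, Mafk 0.0019, Cxxc1 0.04, Hcfc1 0.12, Pgk1 0.06, Hoxd13 0.03, Rpl39 0.01, Kif5b 0.11 and Ndufa1 0.02. Under local centring, which takes off the running median of neighbouring regions, they were Diaph1 0.01, Epha7 0.51, Foxk2 0.18, Sox8 -0.1, Upf1 -0.12, Cxxc1 0.17, Mxd1 -0.09, Xpc -0.05, Pgk1 0.03, Prdm16 -0.15, Fasn 0.15, Hoxd13 0.21, Kif16b 0.47, Kif5b 0.09, H2bc3 -0.06, Arhgef16 -0.4 and Dguok -0.21. The cause was not tested. What depth limits in the weakest regions was not tested.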

Other observations

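Regions listed with small nucleolar RNA genes were higher in 59 of 314 cases (18.8%) and lower in 110 (35%), against 28.4% and 29.8% of all regions and 26.5% and 32.9% of regions with no listed gene, while those listed with long intergenic RNA genes were even at 609 and 608 of 2065. In cyclic AMP signalling, the phosphodiesterase gene Pde4a rose from 832, 775 and 746 to 1688, 1509 and 1627 (log2 change 1.03, limma adjusted p = 4.57e-13) and the adenylyl cyclase gene Adcy9 fell from 708, 864 and 908 to 358, 333 and 348 (-1.25).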
